A study of Danio rerio with 8 samples.

Results

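The genes described here are 10 members of the fibroblast growth factor (FGF) pathway, chosen by name and role from the 31172 genes listed for each library. They are the ligands fgf3, fgf8a and fgf10a, the receptor fgfr1a, the feedback inhibitors spry2, spry4, dusp6 and il17rd, and the ETS transcription factors etv4 and etv5b. All 10 were found by name, etv4 under its older name pea3, and all 10 passed the limit set on low values, a mean normalized count of 10 or more over the 4 libraries of a table, in both tables of the study. The rule uses names and roles only, not measured values, although the 10 genes were chosen with earlier results of these data known. By Ensembl identifier, fgf3 is ENSDARG00000068094, fgf8a is ENSDARG00000003399, fgf10a is ENSDARG00000030932, fgfr1a is ENSDARG00000011027, spry2 is ENSDARG00000078308, spry4 is ENSDARG00000068732, dusp6 is ENSDARG00000070914, il17rd is ENSDARG00000038843, etv4 is ENSDARG00000018303 and etv5b is ENSDARG00000044511.

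The RNA-seq data comprise 8 libraries of AB/TU zebrafish, 1 library per condition, in 4 pairs with a WT control each. At 48 hours post-fertilization (hpf), whole crg mutant embryos were set beside WT siblings, and whole Cyp26-deficient embryos beside WT embryos. The study groups WT and heterozygous siblings together in some experiments, and whether the sibling library holds heterozygous carriers is not stated. At 28 hpf, nkx2.5:ZsYellow+ cells sorted from Hdac1-depleted embryos and from Cyp26-deficient embryos were each set beside sorted WT cells. The crg allele changes a splice donor site of hdac1, which encodes a histone deacetylase. The methods of the study describe Hdac1 depletion as injection of an hdac1 morpholino (MO), and Cyp26 deficiency as injection of MOs against cyp26a1 and cyp26c1, whose products break down retinoic acid (RA). A p53 MO was part of every injection, and the sources used here do not say whether the WT controls were injected. Every sorted library carries a BAC transgene in which nkx2.5 regulatory DNA drives ZsYellow, so the gate is meant for second heart field progenitors and likely also takes differentiated cardiomyocytes and pharyngeal progenitors. The RNA of the sorted cells was amplified before sequencing, and that of the whole embryos was not described as amplified.

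FGF ligands are secreted proteins that bind FGF receptor tyrosine kinases and signal through the Ras and MAP kinase cascade. The ETS factors etv4 and etv5b, the Sprouty genes, dusp6 and il17rd are transcribed in response to the pathway, and several of their products dampen it again, so their transcripts are widely used as a readout of FGF signalling. In zebrafish, Fgf8a is required early for cardiac progenitors and later for addition of ventricular cells from the second heart field. In bulk RNA, fewer cells of a type and less RNA per cell cannot be told apart.

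Gene counts summed to between 11070210 and 30257690 per whole-embryo library and to between 13133725 and 19338878 per sorted library. In crg mutants, hdac1 was at 2752 normalized counts (counts divided by the size factor of the library), while WT siblings had 6725, so the log2 fold change was -1.29. The library labelled Hdac1-depleted had 27452 normalized counts of hdac1 against 12004, which does not check that label because the study describes the MO as blocking translation, and a transcript level does not show the protein. In the Cyp26-deficient libraries cyp26a1, itself induced by RA, was 10.1 times its WT level in embryos and 12.9 times in sorted cells. The sorted libraries held nkx2.5 at 516 to 1208 normalized counts and 6 cardiomyocyte markers at a summed 26036 to 38074, but also 5 neuronal markers at 5394 to 13732 and 6 epidermal markers at 29718 to 54963. The 2 WT libraries of a table also differed from each other. They were more than 2-fold apart for 24.9% of genes in whole embryos, a larger share than in either treated pair of that table, and for 15.2% in sorted cells, but for none of the 10 FGF genes.

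Levels are normalized counts per kilobase (kb) of exon, which adjusts for exon length within a table. The 2 tables were scaled separately and are not compared in level. In whole embryos the mean over the 4 libraries was highest for dusp6, at 645 per kb, and lowest for fgf3, at 60.8 per kb. dusp6 encodes a phosphatase that inactivates the MAP kinase ERK, and its range of 575 to 781 per kb lay clear of the next gene. Below it came spry2 (266 to 472), etv5b (209.7 to 491), etv4 (155 to 331), il17rd (149 to 218), spry4 (92.1 to 212) and fgfr1a (125 to 194), where each range overlapped that of its neighbours. The 3 ligands formed the bottom of the order, with fgf10a at 64.3 to 106, fgf8a at 54.3 to 101 and fgf3 at 45.7 to 87.5 per kb. None overlapped fgfr1a, but fgf10a and fgf8a overlapped the range of spry4.

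In sorted nkx2.5:ZsYellow+ cells 4 of the targets headed the order. The level of etv5b spanned 2216 to 2944 per kb and that of dusp6 spanned 1800.2 to 3750.1 per kb, ranges that overlapped. At these levels etv5b exceeded at least 98.04% of all genes past the limit in every sorted library, and dusp6 at least 97.4%. Next came spry4 at 703 to 1292 and etv4 at 818 to 1173 per kb, which overlapped each other but not the pair above them. A gap separated these from fgfr1a (176 to 284), spry2 (127 to 185), fgf10a (85.5 to 238) and il17rd (69.1 to 124), whose neighbouring ranges overlapped. The ligands fgf8a, at 25.4 to 62.9 per kb, and fgf3, at 10.5 to 43.3 per kb, again stood last. Counts in sorted libraries were uneven along some genes. For fgf10a, fgfr1a and il17rd most counts were not assigned to a listed transcript (below), which limits this order.

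**Figure D1:**
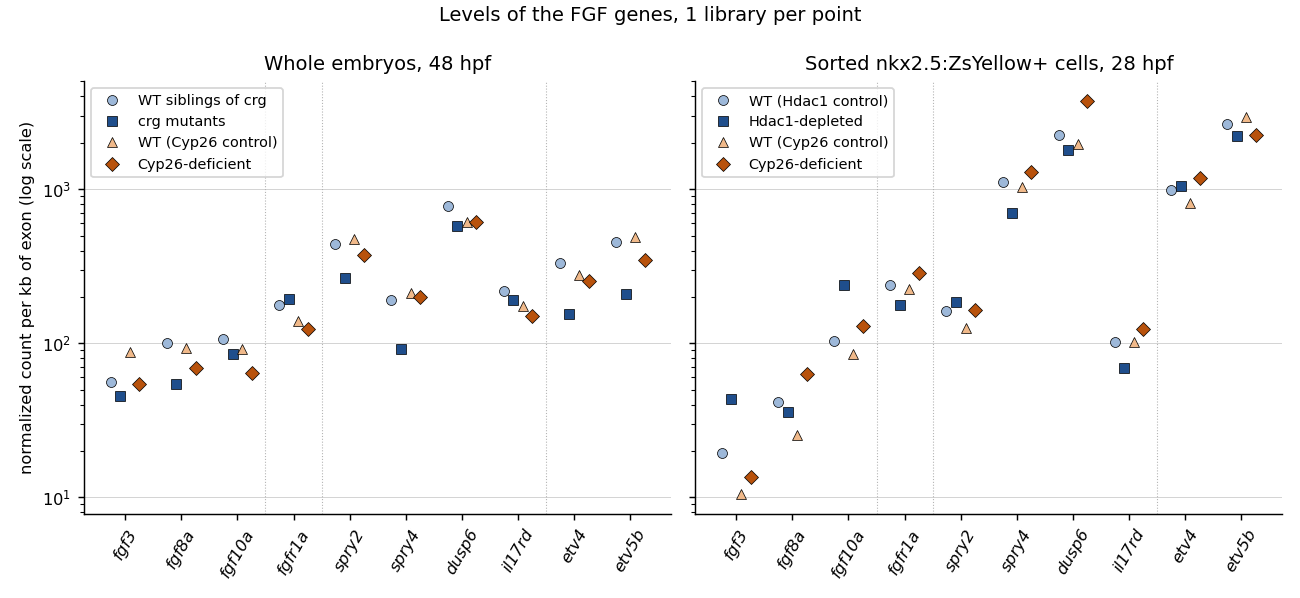
Normalized counts per kb of exon (log axis) of the 10 FGF genes, grouped by dotted lines into ligands, receptor, feedback inhibitors and ETS factors, with 1 point per library. In whole embryos (left) the crg library has the lowest point of fgf3, fgf8a, spry2, spry4, dusp6, etv4 and etv5b; in sorted cells (right) the Hdac1-depleted library has the highest points of fgf3 and fgf10a and the Cyp26-deficient library those of fgf8a and dusp6.

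The first comparison asked how FGF genes stood in embryos that carry the hdac1 splice allele. In crg mutants 9 of the 10 genes stood lower than in WT siblings, beside 48.6% of all genes past the limit. The 3 with the lowest ratios, etv5b, etv4 and spry4, were lowered more than 2-fold. Such a call was made for 7.78% of the 19888 genes past the limit. The median log2 fold change of the 10 genes was -0.58, beside 0.01 over all genes past the limit. None was raised more than 2-fold, a call made for 6.43% of genes.

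etv5b lies on chromosome 6 (Zv9, 13942620 to 13950743, minus strand) and encodes an ETS factor whose transcription follows FGF signalling. It had 1303 normalized counts in WT siblings, 597 in crg mutants, 1399.6 in the WT control of the Cyp26 pair and 982 in Cyp26-deficient embryos. The crg library was below the other 3, and the log2 fold change was -1.12 (95% counting interval -1.30 to -0.95). Of its exonic parts (merged overlapping exons), the 11 with a mean normalized count of 10 or more were all lower, by log2 values from -2.02 to -0.56.

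The related factor etv4 lies on chromosome 12 (29107126 to 29139725, plus strand). It stood at 653 normalized counts in WT siblings, 307 in crg mutants, 550.2 in the second WT library and 502 in Cyp26-deficient embryos. Here too the crg library was alone at the bottom, with a log2 fold change of -1.09 (-1.34 to -0.85), and all 12 exonic parts were lower.

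spry4 encodes a Sprouty protein, an intracellular inhibitor of receptor tyrosine kinase signalling, and lies on chromosome 21 (43164027 to 43169541, minus strand). It had 469, 227, 523 and 490.2 normalized counts in WT siblings, crg mutants, the second WT library and Cyp26-deficient embryos. The value in crg mutants was below all 3 others, at a log2 fold change of -1.04 (-1.34 to -0.76). Its short first exonic part (158 bp) held 1 count in crg mutants against 11 in WT siblings, and its long second part held 159 against 251. The paralog spry2 (chromosome 1, 4171021 to 4174337, plus strand) stood at 666, 403, 713 and 562 normalized counts in the same order, a log2 fold change of -0.72 (-0.95 to -0.50) that did not pass 2-fold.

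The other feedback genes were closer to WT. dusp6 (chromosome 25, 18813588 to 18817793, minus strand) had 2319.8 normalized counts in WT siblings and 1709 in crg mutants, but 1822 in the second WT library and 1813 in Cyp26-deficient embryos. Its log2 fold change of -0.44 was accordingly -0.09 against the second WT library. il17rd, on chromosome 11 (43722152 to 43799988, plus strand), encodes the transmembrane inhibitor Sef and had a log2 fold change of -0.20 (-0.41 to 0.01). Against the second WT library that value was 0.11.

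Among the ligands, fgf8a was lowest relative to WT siblings. The gene lies on chromosome 13 (28719021 to 28725587, plus strand) and had 226 normalized counts in WT siblings, 121 in crg mutants, 208 in the second WT library and 154 in Cyp26-deficient embryos. The crg value was below the other 3, with a log2 fold change of -0.89 (-1.31 to -0.49), short of 2-fold. The log2 fold change of fgf3, an early hindbrain and pharyngeal ligand on chromosome 7 (54645626 to 54649094, minus strand), was -0.29 (-0.83 to 0.25). For fgf10a (chromosome 21, 18476689 to 18510497, plus strand), whose mammalian ortholog marks second heart field progenitors, it was -0.32 (-0.69 to 0.06). The receptor gene fgfr1a (chromosome 8, 53708709 to 53802565, minus strand) was the only one of the 10 above 0, at 0.14 (-0.0014 to 0.28).

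Of the 10 genes, 6 had a 95% counting interval wholly below no change in crg mutants, against 23.7% of all genes, and 0 had one wholly above, against 24.8%. The log2 fold change was larger in size than the difference between the 2 WT libraries for 7 of the 10, the exceptions being fgf3, fgfr1a and il17rd. No share over all genes was computed for this count. The WT difference itself had a median size of 0.23 for the 10 and 0.54 over all genes. Against the second WT library etv5b was at -1.23, spry4 at -1.20 and etv4 at -0.84, so that 2 of the 10 were lowered more than 2-fold. The share of all genes lowered against that library is not given here, and the 2 WT libraries were more than 2-fold apart for 24.9% of genes. With total gene counts in place of size factors, the median of all genes moved up by 0.16 and none of the 10 passed 2-fold, while the median of the 10 relative to that of all genes stayed at -0.59 (-0.60 with size factors). Markers of other tissues also differed between crg mutants and WT siblings. The 5 lens markers summed to 1098 normalized counts against 12959, with 5 of 5 lowered more than 2-fold. The second WT library had 15102. The 6 cardiomyocyte markers summed to 2287 against 5185, with 4 of 6 lowered, but the second WT library had 2052, below the crg value. The 5 markers of the midbrain-hindbrain boundary, a site of fgf8a expression, summed to 596 against 567, with 1 raised and 0 lowered. Their sum was 1699.5 in the second WT library. The part of these differences in the FGF values was not tested.

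The second comparison asked about whole Cyp26-deficient embryos. None of the 10 genes was more than 2-fold from its WT level there. Calls of that kind were made for 3.5% of the 19888 genes above and 2.59% below. All 10 log2 fold changes were below 0, as were 53.2% of all genes, with a median of -0.29 beside -0.03 over all genes. However, 5 of the 10 (dusp6, etv4, fgfr1a, il17rd and spry4) lay above 0 when total gene counts set the scale, which moved the median of all genes by 0.25. With TMM factors, or factors from the 2 libraries compared, dusp6 alone lay above 0, and against the other WT library spry4 alone did. Relative to the median of all genes the median of the 10 was -0.25 under either scale.

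The ligands and etv5b had the lowest values among them. fgf3 was at 102 normalized counts against 165, a log2 fold change of -0.69 (-0.98 to -0.41), but the WT siblings of crg mutants had 106, and against that library the value was -0.05. fgf10a, with levels of 213, 171 and 184 in the other 3 whole-embryo libraries, was lowest in the Cyp26-deficient library at 129, with -0.51 (-0.78 to -0.26) against its own WT control and -0.72 against the other. For fgf8a the values were -0.44 (-0.68 to -0.20) and -0.55.

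The targets did not follow the ligands as a group. etv5b had a log2 fold change of -0.51 (-0.60 to -0.42), spry2 of -0.34 (-0.47 to -0.22) and il17rd of -0.23 (-0.38 to -0.08). The interval of dusp6 reached from -0.08 to 0.07, that of spry4 from -0.24 to 0.05 and that of etv4 from -0.27 to 0.01, all holding no change. In all, 7 of the 10 intervals lay below no change, against 31.5% of all genes, and 0 above, against 23.5%. For 5 of the 10 the log2 fold change was no larger in size than the difference between the 2 WT libraries, a count without a computed share over all genes. Erythrocyte markers moved beside these values, with 4 genes summing to 7576 normalized counts against 22385 and 3 of 4 lowered more than 2-fold. Skeletal muscle markers summed to 318854 against 565007 with 0 of 6 past 2-fold, and the part of either list in the FGF values was not tested.

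**Figure D2:**
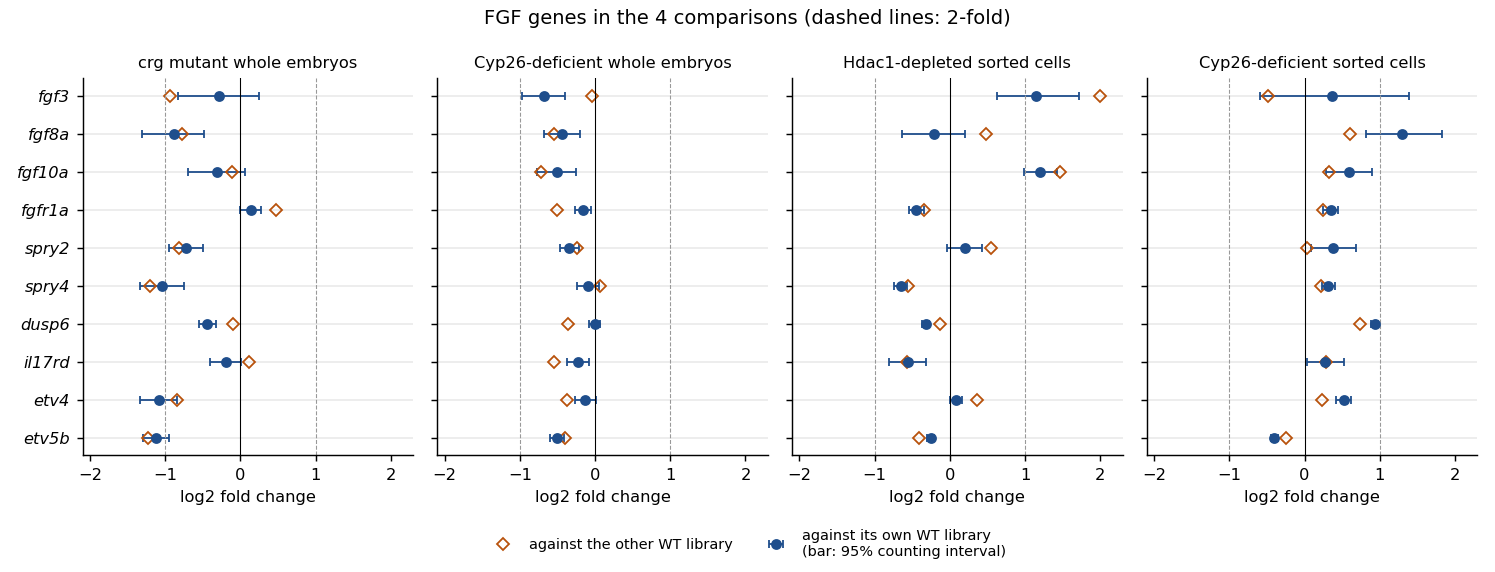
Log2 fold change (x axis) of the 10 FGF genes in the 4 comparisons, with filled circles against the WT library of the pair, bars for 95% counting intervals and open diamonds against the WT library of the other pair. Past the dashed 2-fold lines lie spry4, etv4 and etv5b in crg mutants, fgf3 and fgf10a in Hdac1-depleted sorted cells and fgf8a in Cyp26-deficient sorted cells, where fgf8a falls to 0.60 against the other WT library.

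The third comparison asked the same of sorted nkx2.5:ZsYellow+ cells after Hdac1 depletion. Here the ligands fgf10a and fgf3 were raised more than 2-fold, and none of the 10 genes was lowered by that much. Over all 20033 genes past the limit in sorted cells, 12.4% were raised and 12.7% lowered more than 2-fold. The median of the 10 was -0.23, beside -0.01 over all genes, but turned to 0.12 against the other WT library.

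fgf10a had 477 normalized counts in Hdac1-depleted cells, 207 in their WT control, 172 in the WT control of the Cyp26 pair and 258 in Cyp26-deficient cells. The Hdac1-depleted library was above the other 3, with a log2 fold change of 1.20 (0.99 to 1.43), and 1.47 against the other WT library. The first and last exonic parts of the gene differed. The last part (18509577 to 18510497, 921 bp) held 493 counts in Hdac1-depleted cells against 198, a log2 fold change of 1.41 (1.18 to 1.66), while the first part (18476689 to 18477668, 980 bp) held 36 against 40, at -0.05 (-0.74 to 0.64). The last part took 91.8% of the gene's counts in Hdac1-depleted cells (95% exact interval 89.2% to 93.98%), 79.2% (73.6% to 84.1%) in their WT control, 74.1% in the second WT library and 79.3% in Cyp26-deficient cells. Over 5968 genes with enough counts at both ends, 3.28% had a first part that stood lower relative to the last. A gene on the opposite strand, si:ch211-262i10.2, overlaps fgf10a and held 3 to 21 counts per sorted library. Since no strand setting is given for these libraries, counts of the pair may be mixed. The table assigned 36.9% of fgf10a to its listed transcript in Hdac1-depleted cells and 23.3% in their WT control, below the median gene (62.2% and 60.1%) and below the 94.4% to 100% of fgf10a in whole embryos. What the rest holds is not stated, so how far the rise of fgf10a counts is one of its listed transcript is not known from these tables. Low shares on listed transcripts were not particular to fgf10a in sorted cells. There il17rd had 27.0% to 41.0% and fgfr1a 39.2% to 43.5%, so the same limit holds for the sorted-cell levels and fold changes of il17rd and fgfr1a.

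fgf3 had 81.6 normalized counts in Hdac1-depleted cells, 36.4 in their WT control, 19.7 in the other WT library and 25.6 in Cyp26-deficient cells. It was highest after Hdac1 depletion, at a log2 fold change of 1.14 (0.63 to 1.72) from 92 counts against 44, and the 2 WT libraries themselves differed by 0.85 (0.03 to 1.81). Both of its longer exonic parts were higher, by 1.42 and 1.02. The third ligand, fgf8a, was at -0.21 (-0.63 to 0.20), and at 0.49 against the other WT library.

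The receptor and several inhibitors were lower in the same cells. spry4, at 1736 normalized counts after Hdac1 depletion against 2734, 2562 and 3192 in the other 3 libraries, had a log2 fold change of -0.66 (-0.74 to -0.57). il17rd had 201 against 297, 299 and 362, a log2 fold change of -0.56 (-0.81 to -0.32). fgfr1a, with 1309.8 against 1784, 1659.6 and 2110.4, had -0.45 (-0.54 to -0.35). Each of these 3 genes was lowest in the Hdac1-depleted library and lower than in either WT library.

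dusp6 had a log2 fold change of -0.32 and etv5b of -0.26, and both remained below 0 against the other WT library, at -0.13 and -0.41. For etv4 the value was 0.08, and for spry2 0.20 (-0.04 to 0.43). Both were smaller in size than the difference between the WT libraries, as was that of fgf8a. Counting intervals lay above no change for 3 of the 10 and below it for 5, against 34.1% and 33.9% of all genes.

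Markers of other cells also differed within this pair. Neural crest markers, 5 genes of which 4 were raised more than 2-fold, summed to 10198 normalized counts after Hdac1 depletion and to 1246 to 1788 in the other 3 sorted libraries. The 5 lens markers summed to 162 against 1246 in the WT control, with 4 of 4 tested lowered and cryaa at 0 in both. The other WT library had 67.9 and Cyp26-deficient cells 257, so the WT control of this pair was the highest. The 5 neuronal markers summed to 5394 against 9399.6, with 2 of 5 lowered. The 4 erythrocyte markers summed to 248 against 1024, with 3 of 4 lowered, while the other WT library had 733 and Cyp26-deficient cells 860. The cardiomyocyte markers summed to 36006 against 38074, with 1 of 6 lowered. The part of these other cells in the FGF values was not tested.

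The fourth comparison concerned sorted cells of Cyp26-deficient embryos. There 9 of the 10 FGF genes were higher than in the WT control, with etv5b as the exception, beside 49.6% of all genes. The median log2 fold change of the 10 was 0.37 beside 0.00 over all genes. Only fgf8a was raised more than 2-fold, a call made for 8.81% of all genes, and none of the 10 was lowered by that much, a call made for 7.6%. Counting intervals lay above no change for 8 of the 10 and below it for 1, against 26.9% and 28.2% of all genes. Against the other WT library 8 of the 10 were above 0, the median was 0.24, and none passed 2-fold. When the exon with the most counts stood for the gene, 6 of the 10 were above 0. Shares of all genes are not given for these 2 settings.

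dusp6 had the narrowest interval. It stood at 11138 normalized counts in Cyp26-deficient cells, 5837 in their WT control, 6670.4 in the WT control of the Hdac1 pair and 5347 in Hdac1-depleted cells. The Cyp26-deficient library was above the other 3, with a log2 fold change of 0.93 (0.88 to 0.98), and 0.74 against the other WT library. All 4 exonic parts were higher, by 0.88 to 1.57. With total gene counts as the scale dusp6 passed 2-fold as well, at 1.01.

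fgf8a had 141 normalized counts in Cyp26-deficient cells, 56.8 in their WT control, 92.6 in the other WT library and 79.9 in Hdac1-depleted cells. The log2 fold change was 1.30 (0.82 to 1.83), but the WT control of this pair was itself 0.70 (0.20 to 1.23) below the other WT library, against which the value was 0.60. The counts were not spread evenly along the gene. The first exonic part (28719021 to 28719616) held 69 of 132 counts in Cyp26-deficient cells, a share of 52.3% (95% exact interval 43.4% to 61.0%), and 7 of 46 counts in the WT control, a share of 15.2% (6.3% to 28.9%). In the Hdac1 pair that share was 38.9% (28.8% to 49.7%) after depletion and 41.1% (31.9% to 50.8%) in WT cells, so that the WT control of the Cyp26 pair had the lowest share of the 4, with an interval that just reached that of the Hdac1-depleted library. The last part (28724271 to 28725587), which is the longest, had a log2 fold change of 0.12 (-0.60 to 0.90) from 37 counts against 29.

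The gap between the first and last parts of fgf8a, 2.78 on the log2 scale, exceeded that of 98.6% of 5914 genes with enough counts at both ends, whose median gap was 0.47. In these tables the transcript rows give each transcript's share of its gene. The share of the fgf8a transcript ENSDART00000144968 was 16.9% in the WT control of the Cyp26 pair and 0.10% to 1.34% in the other 3 sorted libraries, beside 0.826% to 12.4% in whole embryos. These libraries were made from amplified RNA, and whether that sets the distribution along genes was not tested.

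**Figure D3:**
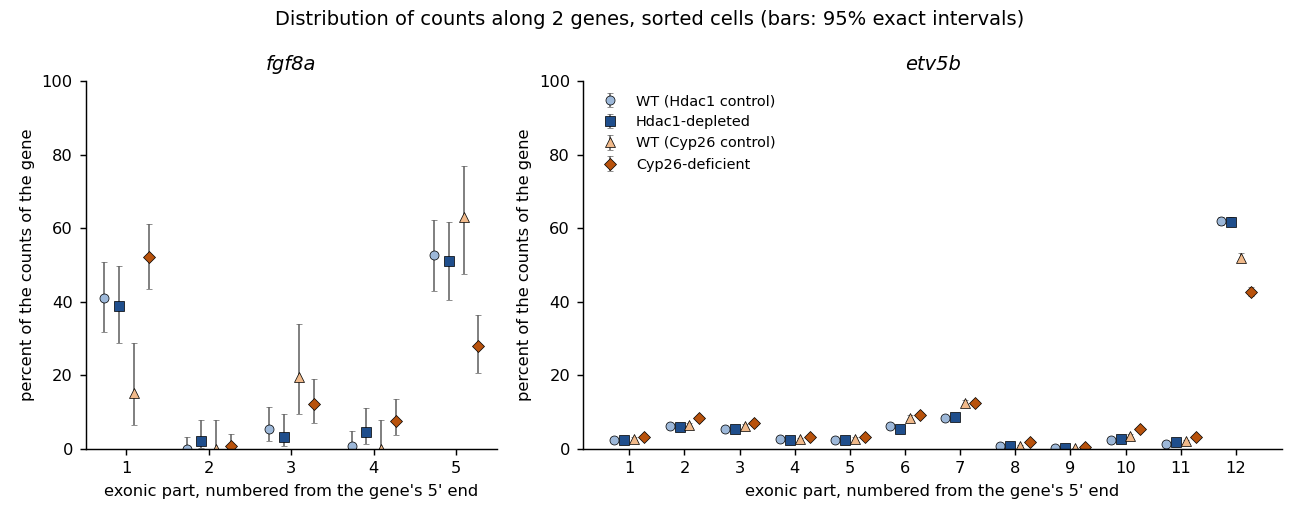
Percent of a gene's counts (y axis) on each exonic part, numbered from the 5′ end, for fgf8a (left) and etv5b (right) in the 4 sorted libraries, with bars for 95% exact intervals. The WT control of the Cyp26 pair has 15.2% of fgf8a counts on part 1, the lowest of the 4, and part 12 of etv5b takes 42.7% of counts in Cyp26-deficient cells and 52.0% to 61.9% in the others.

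The other higher values in Cyp26-deficient cells were smaller. etv4, with 2316 normalized counts against 1615, 1963 and 2081, was at 0.52 (0.42 to 0.62) and at 0.24 against the other WT library. fgf10a was at 0.59 (0.28 to 0.90), again from its last 2 exonic parts, since the first part held 36 counts against 31 and had a log2 fold change of 0.00 (-0.73 to 0.75). fgfr1a stood at 0.35 (0.25 to 0.45), spry2 at 0.38 (0.09 to 0.69), spry4 at 0.32 (0.24 to 0.40) and il17rd at 0.28 (0.03 to 0.52). All 4 had values above 0 against both WT libraries, although that of spry2 was 0.03 against the other WT library. When the exon with the most counts stood for the gene, fgfr1a was at -0.15 and il17rd at -0.31. fgf3 had 24 counts against 16, which does not resolve a direction at this depth, with an interval of -0.60 to 1.39.

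etv5b was the member that ran the other way, at 6354 normalized counts in Cyp26-deficient cells, 8388 in their WT control, 7538 in the other WT library and 6312 in Hdac1-depleted cells. Both treated libraries were thus below both WT libraries. The log2 fold change was -0.40 (-0.45 to -0.35), and -0.25 against the other WT library. Its exonic parts were unequal: the last part (13942620 to 13943935), the longest, was lower by -0.68 (-0.76 to -0.61), while parts 8 and 9 were higher, at 0.93 (0.44 to 1.47) and 1.13 (0.13 to 2.43). The last part took 42.7% of etv5b counts in Cyp26-deficient cells (41.5% to 44.0%) and 52.0% (50.8% to 53.1%) in their WT control, but 61.8% and 61.9% in the Hdac1 pair.

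Several marker lists differed within this pair. Skeletal muscle markers summed to 24479.6 normalized counts in Cyp26-deficient cells against 12001, with 4 of 6 raised more than 2-fold, and the other 2 sorted libraries had 24776 and 32428. nkx2.5 was at 1208 against 516 normalized counts, while the 6 cardiomyocyte markers summed to 26036 against 30808. The midbrain-hindbrain boundary markers summed to 597 against 948, with 1 raised and 1 lowered, but to 414 in the other WT library. Neuronal markers summed to 8263 against 13732, and to 9399.6 in the other WT library. Lens markers summed to 257 against 67.9, with 2 raised and 0 lowered, while the other WT library had 1246. Neural crest markers summed to 1788 against 1246, with 2 raised and 0 lowered, and to 1487 in the other WT library. The part of these differences in the FGF values was not tested.

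Cyp26 deficiency was sampled in both tables, at different ages and in different material. For fgf8a, fgf10a, fgfr1a, spry2 and il17rd the interval lay below no change in whole embryos and above it in sorted cells. The share of all genes with this pattern was not computed. The pattern did not hold under every setting: with total gene counts fgfr1a stood at 0.096 and il17rd at 0.023 in whole embryos. With the top exon they stood at -0.15 and -0.31 in sorted cells, and against the other WT library spry2 was at 0.03 in sorted cells. etv5b was below no change in both, at -0.51 and -0.40, and dusp6 was at -0.01 in whole embryos and 0.93 in sorted cells.

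Other genes of the pathway give the setting of these values. Of 59 further FGF genes listed by role, 57 were matched, and the limit on low values was passed by 49 of them in the whole-embryo table and by 50 in the sorted table. In crg mutants 8 of the 49 were lowered more than 2-fold and 0 raised, with a median of -0.06, where the shares over all genes were 7.78% and 6.43%. Ligands made up 6 of the 8, among 13 tested with a median of -0.81, and the largest were fgf6b, fgf18a and fgf20a. These ligands were scarce: fgf6b had 3 counts against 10, which is 0.237 times its WT level (0.0419 to 0.919). Its normalized counts were 17.9 in WT siblings, 4.24 in crg mutants, 11.6 in Cyp26-deficient embryos and 10.8 in the second WT library. It passed the limit on low values only with the WT siblings included, so its fall is not independent of that limit. fgf18a had 7 counts against 17, a log2 fold change of -1.53 (-3.13 to -0.28), and fgf20a 4 against 10, at -1.51 (-3.79 to 0.13). The 6 receptor genes had a median of 0.03 and the 17 adaptor and relay genes one of -0.01. The 11 further inhibitor and feedback genes also had a median of -0.01, with 1 lowered more than 2-fold and 0 raised. That gene, dusp2, named after its value was seen, had 149 normalized counts in WT siblings and 70.6 in crg mutants. The second WT library had 46.5, below the crg value. Of the ETS factors, etv5a was at -0.39 and etv1 at -0.66.

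In Cyp26-deficient embryos 1 of the 49 further genes was raised more than 2-fold and 0 lowered, beside 3.5% and 2.59% of all genes. This was fgf19, a ligand with roles in forebrain and lens development in zebrafish, at 81 counts against 4. Its log2 fold change was 3.35 (2.31 to 5.63), and 1.83 against the other WT library. WT siblings of crg had 6 counts and crg mutants 3, a fall past 2-fold that is counted above. The same gene had 28 counts in Cyp26-deficient sorted cells and 0 in their WT control, which makes it at least 8.07-fold higher when the WT level is set to 3 counts in that library. The other WT library, however, had 10 counts of fgf19, against which the log2 fold change was 1.74. In each table fgf19 passed the limit on low values only through its Cyp26-deficient library, at 40.8 normalized counts in embryos and 29.9 in sorted cells. The highest values elsewhere were 10.7 and 8.27. Its rises, and its calls in the crg and Hdac1 pairs, are therefore not independent of that limit.

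In Cyp26-deficient sorted cells 3 of the 50 were raised, fgf19, fgf4 and fgf2, and 1 lowered, fgf24, beside 8.81% and 7.6% of all genes. fgf4 had 72 counts against 21, a log2 fold change of 1.53 (0.85 to 2.34), and fgf2 27 against 8, at 1.46 (0.37 to 2.89). Against the other WT library both fell short of 2-fold, at 0.74 and 0.77. fgf24, a ligand of fin bud development in zebrafish, had 8 counts against 15, at -1.03 (-2.56 to 0.21). The 14 ligands tested had a median of 0.32, with fgf19 set against the floor of 3 counts as without, and the 6 receptors one of -0.09. Relatives of the described genes that stood high were the ETS gene etv5a, at 0.84 and at 0.85 against the other WT library, and the phosphatase gene dusp4, at 0.83 and 0.56, both named after their values were seen. Their roles did not stand high as a whole. The 11 inhibitor and feedback genes tested had a median of -0.22 and the 2 ETS genes one of -0.03. The other ETS gene, etv1, had 39.5 normalized counts against 74.0, and 36.4 in the other WT library.

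Hdac1-depleted sorted cells had 3 of the 50 raised and 4 lowered, while 12.4% of all genes were raised and 12.7% lowered, so neither share of the list exceeded that of all genes. fgf20a had 41 counts against 9, a log2 fold change of 2.15 (1.23 to 3.52), and 1.78 against the other WT library. fgf8b, the paralog of fgf8a, had 28 counts against 1, which is 30.1 times the WT level (4.97 to 1229), but the other WT library had 25 counts and gave a log2 value of -0.30. The adaptor gene grb2a was at 1.23 (0.67 to 1.86) and at -0.11 against the other WT library. Of these 3, only fgf20a was raised against both WT libraries.

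The largest of the falls were fgf21, at 9 counts against 41 and -1.96 (-3.31 to -1.02), fgf2, at 8 against 20 and -1.11 (-2.61 to 0.03), and fgf19, at 4 against 10 and -1.03 (-3.35 to 0.57). The other WT library had 0 counts of fgf19, so that its direction turned, while fgf21 stood at -1.21 and fgf2 at -0.42. The remaining gene, named after its value was seen, was the receptor gene fgfr4, which had by far the most counts. It stood at 4695 normalized counts in Hdac1-depleted cells, 9549 in their WT control, 9660.5 in the other WT library and 6504 in Cyp26-deficient cells. The log2 fold change of fgfr4 was -1.02 (-1.07 to -0.98), and -1.04 against the other WT library.

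**Figure D4:**
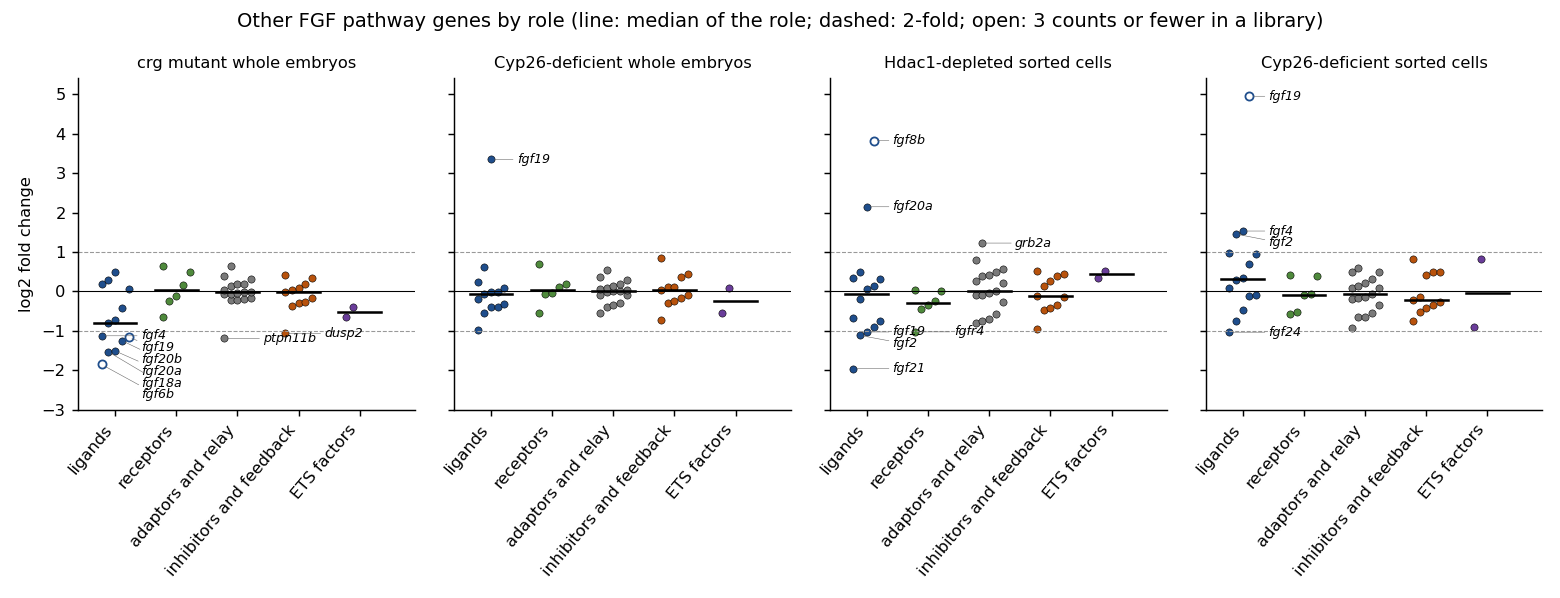
Log2 fold change (y axis) of the further FGF pathway genes by role in the 4 comparisons, with 1 point per gene, bars at the median of each role and names for genes past the dashed 2-fold lines. Open points had 3 counts or fewer in a library, so their values depend on the pseudocount. The ligand median is -0.81 in crg mutants and 0.32 in Cyp26-deficient sorted cells.

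For each of the 10 genes whose mean normalized count was 50 or more in both tables, which left out fgf3, the genes with the most similar 4 log2 fold changes were found among 13201 others by Euclidean distance. Nearest to etv4 were crtap and mrpl35, at distances of 0.12 and 0.15, and to etv5b mat2aa and pkma, at 0.23 and 0.24. Nearest to spry2 were opn4.1 and vwa2, to spry4 itgb1b.2 and homer1b, and to fgf8a tmod4 and gatm, the last pair at 0.35 and 0.36. The nearest genes of dusp6 were si:rp71-1h20.5 and tmem145, of fgfr1a wdr37 and gid8a, of il17rd LIG3 and EIF2A, and of fgf10a BX294110.1 and AL929150.1. None of the 10 genes was the nearest of another. By distance the closest pair was fgfr1a and il17rd, at 0.37. By rank it was spry2 to etv4, ranked 26 of 13201 at a distance of 0.46, and the ranks of the nearest FGF gene to the others ran from 64 (dusp6 to fgf8a) to 1578 (spry2 to fgf10a).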

How the data were processed

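Reads had been aligned by the authors in Strand-NGS against the Zv9 (danRer7) assembly. What they deposited, in 1 table for whole embryos and 1 for sorted cells, are unnormalized expected counts for genes and exons. The whole-embryo table has no header, and short names inside its rows were matched to the labels by interpretation: crg-minus was read as the crg mutant and crg-plus as its WT siblings, AC48hpf as Cyp26-deficient (cyp26a1 and cyp26c1) and WT48hpf as its control. The whole-embryo results rest on this reading. The version and read filters are not given in the sources used here. Whole-embryo libraries were single-end and stranded. Those of sorted cells were paired-end, and no strand setting is given for them. On the transcript rows of the deposited tables each value is a share of the gene's counts, used here as a percent.

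Expected counts were rounded, and size factors came from the median of ratios across a table's 4 libraries. Log2 fold changes used a pseudocount of 1 and genes whose mean normalized count across them was 10 or more. A gene was called when past 2-fold. Since each condition had 1 library, no p-value was computed, and differences have no replicate check. The 95% counting intervals are exact (Clopper-Pearson) and cover counting error only. A fold against a library at 0 was set against a floor of 3 counts. The 10 genes, the 59 further FGF genes and the marker lists were chosen with earlier results of these data known. Further genes were named when among the 3 largest rises or falls past 2-fold. Of the listed genes, frs3, spry3 and the markers gata6, gap43, crestin, hbbe1 and hemgn were not matched and not analysed here, and for raf1a, with more than one row, the row with more counts was used. Gene positions are those of the deposited tables.

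Alternatives were edgeR's TMM factors (edgeR 4.0.16, R 4.3.3), total gene counts, size factors from the 2 libraries compared, pseudocounts of 0.1 and 10, the WT control of the other pair, the exon with the highest mean count, no filter, a mean of at least 50, and the nearer interval limit past 2-fold. Python 3.11.15, numpy 2.4.6, pandas 2.3.3, scipy 1.17.1 and matplotlib 3.10.9 were used. The functions were tested on simulated counts.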

Additional observations from a re-analysis of the deposited data

Results flagged for a closer look

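Cyp26 deficiency gave FGF values on opposite sides of no change in the 2 kinds of material for 5 of the 10 genes, each with a counting interval clear of no change in both. No share over all genes was computed for this count. Taken singly, 31.5% of all genes had an interval below no change in whole embryos and 26.9% one above it in sorted cells. The difference, sorted cells at 28 hpf minus whole embryos at 48 hpf, was 1.73 on the log2 scale for fgf8a, 1.10 for fgf10a, 0.73 for spry2, 0.51 for il17rd and 0.50 for fgfr1a. Against the other WT library the sorted values fell from 1.30 to 0.60 for fgf8a, from 0.59 to 0.32 for fgf10a and from 0.38 to 0.03 for spry2. The sorted values were also uneven along 2 genes. Exonic parts with a mean normalized count of 10 or more ran from 0.12 to 2.90 for fgf8a and from 0.00 to 1.17 for fgf10a. In whole embryos fgfr1a and il17rd lay above 0 with total gene counts (0.096 and 0.023), and in sorted cells they lay below 0 with the top exon (-0.15 and -0.31). Each side rests on 1 treated and 1 WT library, so the difference was not tested, and age, material and RNA amplification cannot be told apart.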

How the results depend on the processing

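No paired analysis was possible because each condition had 1 library. Of 280 values of single genes under the alternatives, 226 stayed within their counting interval, 16 changed sign, and none of those past 2-fold did. TMM factors, factors from the 2 libraries compared and a pseudocount of 0.1 left the counts of the 10 genes past 2-fold unchanged. Each median stayed within the median interval limits of the 10 genes. In Cyp26-deficient embryos it went from -0.29 to -0.27 with TMM factors and to -0.26 with those from the 2 libraries. There dusp6 went above 0 with either kind of factors. Counts and medians that moved less than a set tolerance are not listed below. The cause of the changes below was not tested, and shares over all genes are not given for these alternatives.

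With the WT control of the other pair, the median of the 10 genes was 0.24 in Cyp26-deficient and 0.12 in Hdac1-depleted sorted cells, and 0 of the 10 rather than 1 were raised in the former. Further FGF genes raised and lowered were then 6 and 2 in Cyp26-deficient cells, 5 and 7 in Hdac1-depleted cells and 4 and 2 in Cyp26-deficient embryos, and 1 was raised in crg mutants. Under total gene counts 0 of the 10 were lowered in crg mutants, 2 were raised in Cyp26-deficient cells, the median in Cyp26-deficient embryos was -0.033, and further genes raised were 2 in those embryos and 5, with 0 lowered, in Cyp26-deficient cells. With the nearer interval limit past 2-fold, 0 of the 10 were called in any comparison, and further genes lowered were 0 in crg mutants, 1 after Hdac1 depletion and 0 in Cyp26-deficient cells, where 1 was raised. With the top exon, 0 of the 10 were raised in Cyp26-deficient cells, and further genes called were 1 raised and 4 lowered in crg mutants and 5 raised and 2 lowered in Cyp26-deficient cells. A mean of at least 50, which tests fewer genes, left 1 of the 10 raised in Hdac1-depleted cells, and further genes at 3 lowered in crg mutants, 0 raised in Cyp26-deficient embryos, 1 raised and 1 lowered in Hdac1-depleted cells, and 1 raised and 0 lowered in Cyp26-deficient cells. A pseudocount of 10 left 1 of the 10 raised in Hdac1-depleted cells and further genes lowered at 3 in crg mutants, 2 after Hdac1 depletion and 0 in Cyp26-deficient cells. With no filter, 1 further gene was raised in crg mutants and 2 were lowered in each Cyp26 comparison.

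Depth limits the ligands most. fgf3 had 16 to 92 counts in sorted libraries, while dusp6 had at least 4730, so a small difference in fgf3 cannot be seen where the same one in dusp6 can.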
